A study of Mus musculus with 30 samples.

Results

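The keratin-associated proteins are the matrix proteins of hair and nail, and their genes are named with the prefix Krtap in the mouse. All genes whose symbol starts with Krtap were taken from the deposited tables of a mouse digit regeneration time course, which gave 46 of the 20321 genes listed. Genes with other symbols that lie among them were left out, and shares of the family given below are shares of these 46. In this study the distal phalanx (P3) of hindlimb digit 3 was amputated by at most 33% in adult male C57Bl/6 mice, and the healing digit tip was collected for RNA-seq to follow its transcriptome during regeneration. The 30 mice were collected at 9 time points after surgery, first at 0h, 3h, 6h, 12h and 24h and then at 3d, 7d, 14d and 21d, with 6 mice at 7d and 3 at each of the others. All mice were amputated and no other treatment is named, so the 0h mice served as the reference and no unamputated group was compared. Each library came from the whole P3 of 1 mouse, with nail, skin, bone and marrow together, so that fewer cells of a type and less RNA per cell cannot be told apart. Mice are numbered within a time point, and the numbers carry no pairing.

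Keratin-associated proteins fill the space between the keratin filaments of hard keratins, and are cross-linked to them through disulfide bonds. They are made late in the differentiation of the cells that leave the hair matrix or the nail matrix, after the hard keratins themselves have appeared. The proteins are usually sorted by composition into high sulfur, ultra-high sulfur and high glycine-tyrosine proteins, and their small genes lie in a few dense clusters.

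The expected counts summed to between 3167625 and 16277816 per mouse, with a median of 6103688. The dates in the sample titles placed 16 mice in July to August and 14 in November to January, and 3 of the 7d mice (mice 3, 4 and 6) were labelled as left foot. All 3h and 12h mice carried July to August dates and all 21d mice November to January dates, so for these time points the date and the time could be separated only through the other groups. One 0h and one 12h title (0h mouse 3 and 12h mouse 2) carried the same tag together with the same date. They were treated as separate mice as they are listed, and whether they are one animal cannot be told from the values. Each was left out in turn among the fits without 1 mouse. Libraries of 3 mice stood apart. The inner root sheath keratins Krt25, Krt27 and Krt71, which line the growing hair, summed to 133.6 TPM in 3d mouse 1 and 71.9 TPM in 7d mouse 4, against a median of 1.52 and at most 22.7 in the other 28 mice, where TPM is the level scaled for transcript length and library size. In 7d mouse 3, 11787 genes reached 1 CPM (the count scaled to library size only), against a median of 12990.5. Markers of nail and bone were present as the tissue label implies. The hard keratin Krt83 had a mean of 2763 TPM and the bone collagen Col1a1 a mean of 1978 TPM.

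Of the 46 genes, 38 were detected, which here means at least 1 CPM in at least 3 mice. Of these, 22 reached 1 CPM in all 30 mice. Krtap31-1 and Krtap9-5 had no count in any mouse, and the other 6 undetected genes were Krtap5-3, Krtap5-4, Krtap5-5, Krtap10-10, Krtap12-1 and Krtap31-2. Detection followed the genomic clusters. All 19 members on chromosome 16 and 19 of 22 on chromosome 11 were detected, while none of the 3 members on chromosome 7 or the 2 on chromosome 10 was. In the GENCODE M21 annotation of GRCm38, the chromosome 16 cluster spanned 0.961 Mb (chr16:88610705-89571183) and held 70.4% of the family's mean TPM, and the chromosome 11 cluster spanned 0.444 Mb (chr11:99550130-99993994) and held 29.6%. A single exon was annotated for 45 of the 46 genes.

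The letters upstream of the start site were a feature that most members shared. Promoters of 41 members were found in the RefSeq table (GRCm38.p6), each with 250 bases before and 50 after the start. The TATA box letters TATAAA stood on either strand in 34 of them (82.9%), against 15.7% of 27025 genes with promoters of the same length. A gene was counted when any of its promoters held the letters. On the gene's own strand and starting 20 to 40 bases before the start, they stood in 25 (61.0%) against 2.4%, at a median distance of 31 bases. The letters CTTTGAA, bound by LEF1 and TCF factors, occurred in 6 members (14.6%) against 5.9% of all these genes. The core letters TTTATNG of HOXC13, the homeobox factor of hair and nail differentiation, occurred in 6 (14.6%) against 12.5%, with both strands searched; TATAAA read on the other strand shares its first 5 letters with TTTATNG. The 100 bases before the RefSeq start are given on the gene's strand for 2 abundant glycine-tyrosine genes (Krtap22-2, chr16:89010760-89010859, and Krtap8-1, chr16:89487953-89488052), for the neighbours Krtap3-2 (chr11:99556854-99556953) and Krtap3-3 (chr11:99550864-99550963), for an ultra-high sulfur gene (Krtap4-7, chr11:99644090-99644189) and for Krtap13 (chr16:88751629-88751728), which carried the clearest change over time. All 6 lie on the minus strand, and capitals mark TATAAA.
Krtap22-2: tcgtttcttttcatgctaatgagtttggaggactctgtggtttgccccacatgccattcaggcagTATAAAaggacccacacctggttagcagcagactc
Krtap8-1: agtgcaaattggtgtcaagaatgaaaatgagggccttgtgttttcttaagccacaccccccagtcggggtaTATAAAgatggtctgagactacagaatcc
Krtap3-2: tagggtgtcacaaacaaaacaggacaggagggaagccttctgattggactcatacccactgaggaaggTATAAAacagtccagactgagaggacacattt
Krtap3-3: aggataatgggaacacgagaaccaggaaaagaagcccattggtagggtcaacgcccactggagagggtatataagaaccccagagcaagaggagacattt
Krtap4-7: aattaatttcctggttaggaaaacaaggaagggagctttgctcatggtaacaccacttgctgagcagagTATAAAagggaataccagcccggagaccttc
Krtap13: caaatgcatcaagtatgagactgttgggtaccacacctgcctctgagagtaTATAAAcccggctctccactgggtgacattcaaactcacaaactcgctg
TATAAA began 35, 29, 32 and 31 bases before the start in Krtap22-2, Krtap8-1, Krtap3-2 and Krtap4-7, and 49 bases before it in Krtap13, where the RefSeq and GENCODE starts differ by 7 bases. Krtap3-3 held no exact match. Its sequence reads tatataag in the same region, and such variants were not counted. For Krtap21-1, the most abundant member, the starts of the annotations lie 94 bases apart, so that its sequence is not shown.

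The most abundant member was Krtap21-1, a high glycine-tyrosine gene, with a mean of 10499 TPM over the 30 mice, which placed it at rank 6 among all genes. It supplied 33.0% of the family's TPM. Krtap3-3, a high sulfur gene, followed at 3131.5 TPM (rank 29). Krtap6-5 (1967 TPM), Krtap22-2 (1931 TPM) and Krtap8-1 (1562 TPM) came next, all of them high glycine-tyrosine genes. The 12 most abundant members, which also include Krtap1-5, Krtap7-1, Krtap3-2, Krtap20-2, Krtap6-1, Krtap13 and Krtap3-1, made up 86.6% of the family, and 7 members stood among the 100 most abundant genes. These levels are per transcript length and can be compared between genes, but they depend on how reads shared by similar genes were divided. Of the 46 members, 30 shared at least one stretch of 65 bases, the read length, with another gene. Of these 12, Krtap3-3 shared the largest part, 269 of its 672 stretches, mainly with Krtap3-2. Among members named further on, Krtap4-13 shared 563 of 751 stretches, Krtap10-10 377 of 614 and Krtap2-4 326 of 764, so that their levels are less certain. Krtap22-2, Krtap8-1, Krtap7-1 and Krtap20-2 shared none. Only exact matches were searched, while the paper's mapping allowed mismatches. The expected counts of these genes were not whole numbers in 43.3%, 43.3%, 33.3% and 96.7% of mice, so some of their reads may also have been divided.

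**Figure D1:**
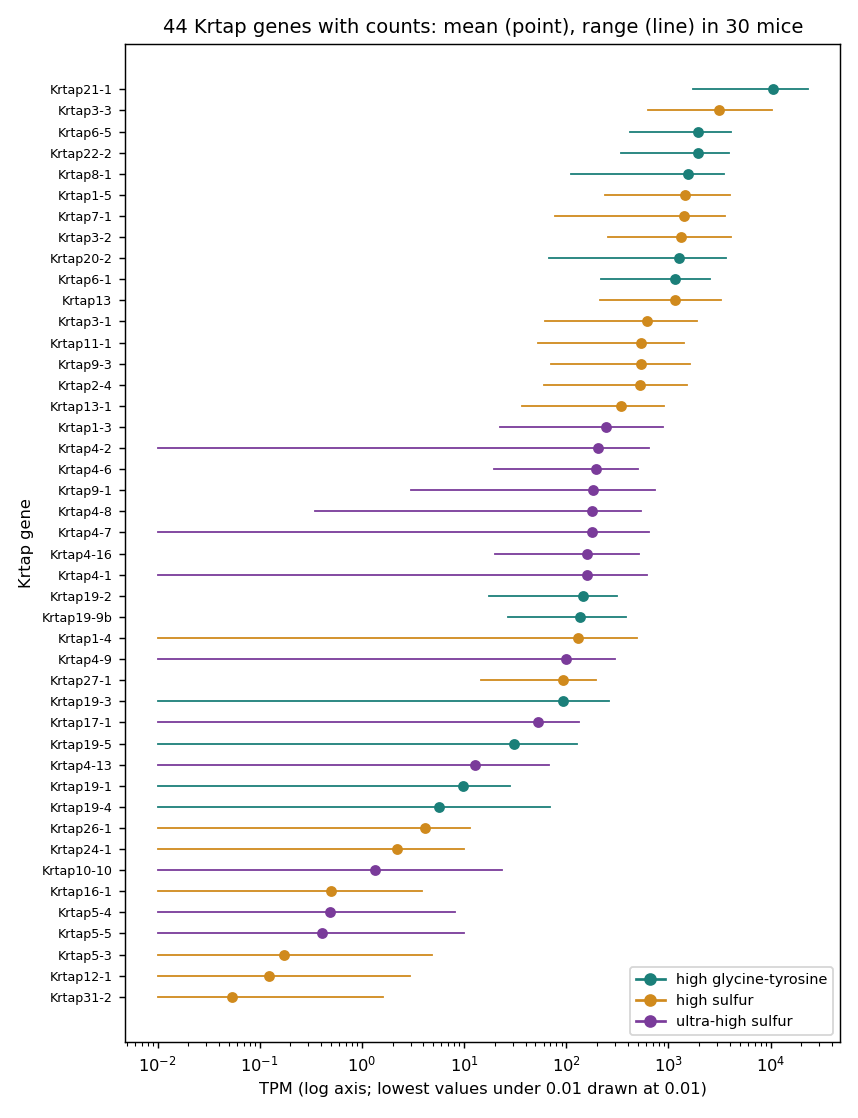
Level of each of the 44 Krtap genes with a count, as the mean TPM over 30 mice (point) and the lowest to highest mouse (line), on a log axis and coloured by protein composition. Krtap21-1 stood highest with a mean of 10499 TPM, the glycine-tyrosine and high sulfur genes filled the top 12, and the ultra-high sulfur genes lay at or below 248 TPM.

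By composition of the encoded protein, 12 members were high glycine-tyrosine (at least 35% glycine and tyrosine) and 15 ultra-high sulfur (over 30% cysteine). The remaining 19 were called high sulfur, with no lower limit on cysteine. Cysteine in this class went down to 8.4% in Krtap27-1, beside 16.4% in the glycine-tyrosine gene Krtap21-1. Krtap7-1 counted as high sulfur here with 29.9% glycine and tyrosine and 9.2% cysteine. All 12 high glycine-tyrosine genes were detected, as were 15 high sulfur and 11 ultra-high sulfur genes. The high glycine-tyrosine genes held 59.2% of the family's mean TPM, the high sulfur genes 35.6% and the ultra-high sulfur genes 5.26%. The detected ultra-high sulfur genes ranged from Krtap4-13 at 12.9 TPM to Krtap1-3 at 248 TPM, with a median of 178.5 TPM. The high glycine-tyrosine genes were not uniformly abundant. Members of family 19 ranged down to Krtap19-4 at 5.63 TPM, while Krtap21-1 was the highest gene of all. The glycine-tyrosine share lay between 51.2% and 68.3% in all 30 mice and the high sulfur share between 29.4% and 45.2%, while the summed levels of these classes varied 12.7-fold and 12.5-fold. The ultra-high sulfur share was less steady, from 0.72% in 7d mouse 3 to 8.05% in 24h mouse 1.

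The summed level of all 46 genes differed widely between mice of the same time point. It ran from 6026 TPM in 3d mouse 1 to 75540 TPM in 14d mouse 1, a 12.5-fold range with a median of 28886 TPM. These 46 genes thus supplied between 0.6% and 7.55% of all transcripts. The sum leaves out genes with other symbols inside the clusters, such as 1110025L11Rik on chromosome 16 with a mean of 9581 TPM. At 0h the 3 mice had 27280, 17936 and 14384 TPM. At 3d they had 6026, 45175 and 44143 TPM, and at 14d 75540, 14377 and 37768 TPM, so that 1 mouse at 3d lay below all 0h mice, 14d mouse 2 was level with the lowest of them, and the others lay above. The 24h mice were close together, at 45006, 38005 and 46826 TPM, and lay above every 0h mouse. The 21d mice, at 73495, 42727 and 37088 TPM, also lay above every 0h mouse. The 12h mice (16184, 14198 and 24865 TPM) overlapped the 0h mice, and the 7d mice (lowest 10047, median 21094, highest 30331 TPM) surrounded them. The difference of the mean log2 levels from 0h was 1.24 at 24h and 1.46 at 21d, beside a pooled SD of 0.87 between mice of a time point.

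**Figure D2:**
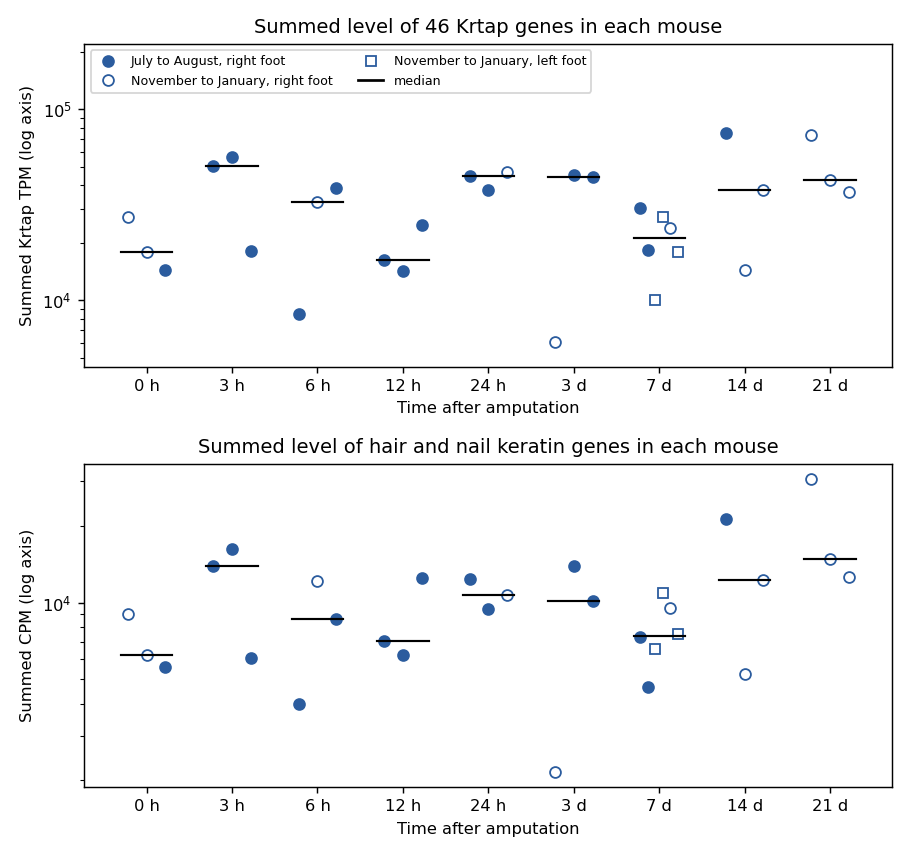
Summed TPM of the 46 Krtap genes (upper panel) and summed CPM of the hair and nail keratin genes (lower panel) in each of 30 mice by time after amputation, on log axes. Filled points are July to August mice, open points November to January mice, squares left-foot mice and lines medians. The 24h and 21d mice sit above the 0h mice in the upper panel, while the 3d and 14d mice are spread from 6026 to 75540 TPM, and 3d mouse 1 is lowest in both panels.

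Over the members that passed the filter on low counts, the SD of log2 CPM within time points had a median of 1.03, against 0.416 for all genes tested. Among genes with a mean of at least 10 CPM the medians were 1.03 for 31 members and 0.333 for 9233 genes, so the difference was as large among well counted genes. Between time points lay a median of 39.3% of a member's variance, against 36.5% for all genes. This share is not corrected for the number of groups, so it lies well above 0 even where nothing changes over time. Only 37 members could be tested, since 9 were removed by the count filter. The removed genes were the 8 undetected ones and Krtap16-1, the only detected member that was not tested.

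Over the 9 time points, 1 of the 37 tested members, Krtap13, passed the edgeR quasi-likelihood F-test at a Benjamini-Hochberg adjusted p of 0.0171, where 9.01% of the 13793 genes tested passed. At an unadjusted p under 0.05, 17 members passed, or 45.9%, against 24.1% of all genes. The nearest members by adjusted p were Krtap3-1 (0.0567), Krtap3-3 (0.0617) and Krtap6-1 (0.0752) by the same edgeR test. Krtap21-1 had an adjusted p of 0.238. The number that passed depended on single mice and on the tool. Without 3d mouse 1, 8 members passed, against 9.31% of all genes in that fit, and without 14d mouse 2, 5 did, against 7.34%, while without 0h mouse 1 or without 21d mouse 1 none passed. DESeq2's likelihood ratio test called 6 members, namely Krtap13, Krtap1-3, Krtap26-1, Krtap3-1, Krtap3-3 and Krtap6-1, but it called 18.1% of all genes. Without the 3 mice that stood apart, Krtap13, Krtap2-4 and Krtap3-1 passed, against 9.33%. With the date group as a covariate 5 passed, namely Krtap13, Krtap1-3, Krtap13-1, Krtap3-1 and Krtap9-3, against 12.2%.

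Krtap13, a high sulfur gene on the minus strand of the chromosome 16 cluster (chr16:88750744-88751635, a single exon), was lowest at 0h and highest at 21d. Its level was 90.1, 135 and 148 CPM in the 0h mice. It was 1468, 822 and 588 CPM at 21d and 1245, 253 and 752 CPM at 14d. Every 14d and 21d mouse thus lay above every 0h mouse, and in the edgeR fit of all mice these were the 2 comparisons in which the gene passed. The log2 fold change against 0h was 2.59 ± 0.57 (SE) at 14d, with an adjusted p of 0.0103, and 2.95 ± 0.57 at 21d, with an adjusted p of 0.00296 (edgeR). At 14d Krtap13 was the only 1 of 37 members called higher, against 1.48% of all genes. At 21d it was again the only 1 called higher, against 1.73%. The 8 comparisons share the same 3 control mice. The 14d call was lost without 0h mouse 1 (adjusted p = 0.101), without 0h mouse 2 (0.0540) or without 14d mouse 1 (0.101), by the same test, whereas the 21d call passed in each of the 30 fits that left out 1 mouse.

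At the times between, the gene was already higher in most mice. It measured 536, 580 and 570 CPM at 24h, 327, 365 and 449 CPM at 12h, and 206, 277 and 414 CPM at 6h, all above the 0h mice. At 7d the lowest, median and highest mice had 187, 329 and 565 CPM. The exceptions were 3h mouse 3 at 130 CPM and 3d mouse 1 at 122 CPM, which fell within the range of the 0h mice. The fitted log2 fold change at 24h was 2.18 ± 0.56, and neither 24h nor 3d passed (edgeR adjusted p = 0.0861 and 0.0922). Within the November to January mice, the difference of mean log2 levels was 3.00 at 21d (3 mice against 2 at 0h) and 1.97 at 14d (2 against 2), beside 2.86 and 2.34 over all mice. Within July to August, 14d against 0h rested on 1 mouse each (3.06), and no 21d mouse was available.

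Krtap13 also moved relative to the rest of its family. Its CPM was 0.98%, 2.23% and 3.44% of the summed CPM of the other members at 0h. At 12h it was 7.4%, 9.88% and 6.11%, and at 21d 5.54%, 5.93% and 4.7%. These are all above the 0h mice, and the same held at 3d, 7d and 14d, but the groups overlapped at 6h, at 24h and at 3h, where the mice had 3.26%, 2.34% and 1.92%. The 0h share itself differed by date, since the value of 3.44% came from the July to August mouse. On the log2 scale the difference from 0h was 1.96 at 12h, 1.45 at 7d and 1.59 at 14d over all mice. Within July to August, against that 1 mouse, it was 1.15, 0.39 and 0.59, and within November to January 1.97 at 7d and 2.09 at 14d. Krtap13 shares 21.0% of its 65-base stretches with 2310057N15Rik, a gene in the same cluster (chr16:88773181-88774206 in RefSeq, GRCm38.p6) that is outside the 46 because of its symbol. The log2 fold change of 2310057N15Rik was 2.64 ± 0.74 at 14d and 2.35 ± 0.73 at 21d, with edgeR adjusted p of 0.072 and 0.127. With both genes counted as one, the 14d and 21d differences were 2.60 and 2.81 and still passed (edgeR adjusted p = 0.0142 and 0.00663).

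**Figure D3:**
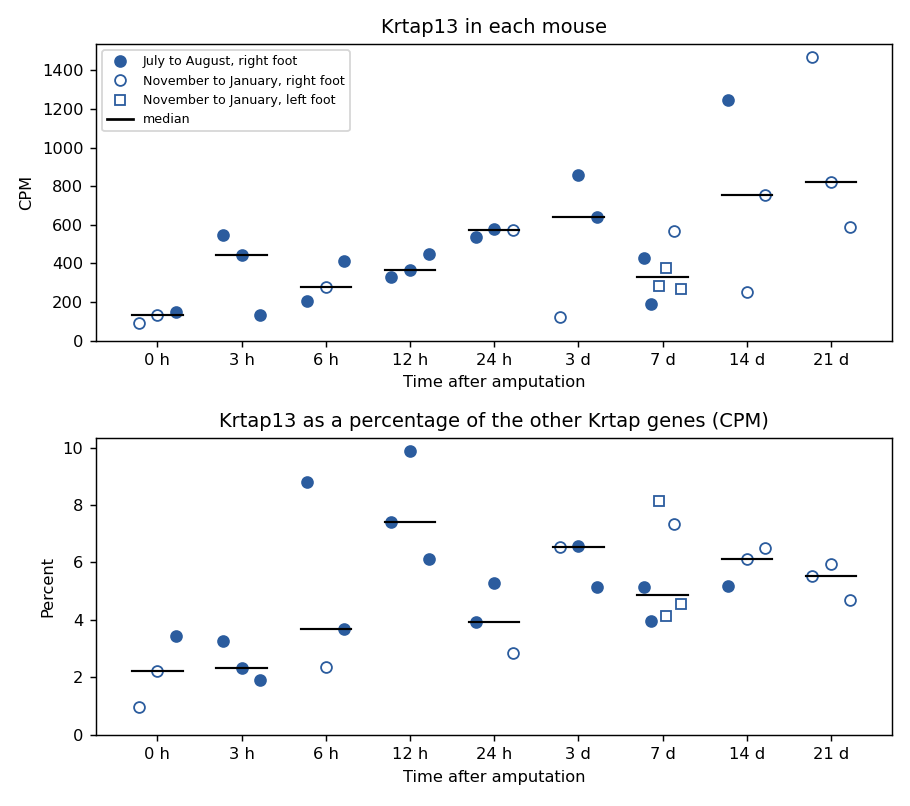
Krtap13 in each of 30 mice by time after amputation, as CPM (upper panel) and as a percentage of the summed CPM of the other Krtap genes (lower panel). Filled points are July to August mice, open points November to January mice, squares left-foot mice and lines medians. The 0h mice lie at 90.1 to 148 CPM and 0.98% to 3.44%, and the 21d mice at 588 to 1468 CPM and 4.7% to 5.93%.

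At 24h all 37 fitted log2 fold changes against 0h were above 0, with a median of 1.35 against 0.01 for all genes tested. In 27 members every 24h mouse lay above every 0h mouse, against 8.77% of all genes. None passed the edgeR test in the fit of all mice (0.493% of all genes did, in either direction), and 7 did at an unadjusted p under 0.05, against 5.2% of all genes in that direction, while DESeq2 called Krtap13 alone. The edgeR fit restricted to the 0h and 24h mice called 5 members higher, namely Krtap13, Krtap20-2, Krtap27-1, Krtap4-7 and Krtap7-1, against 0.507% of all genes. In Krtap21-1 the 0h mice had 9597, 6769 and 4482 TPM and the 24h mice 13796, 11929 and 16059 TPM, a log2 fold change of 1.13 ± 0.62 (edgeR adjusted p = 0.608). Krtap22-2, which shares no exact read-length stretch with another gene, went from 1477, 797 and 1025 TPM to 2416, 2510 and 3898 TPM (1.59 ± 0.57, edgeR adjusted p = 0.315). The groups did not overlap in either gene, but the changes did not pass the test. Since the members vary together from mouse to mouse, the 27 are not independent. Markers of other cell types moved in the same comparison. The epidermal genes summed to 57080 to 86976 CPM at 24h, below the 93276 to 104151 CPM at 0h, with none of 10 called, and the leukocyte genes to 162 to 233 CPM, above the 122 to 153 CPM at 0h, with 2 of 8 called higher (edgeR). Their part in the Krtap levels was not tested.

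At 21d, the 37 fitted changes were again all above 0, with a median of 1.31 against 0.00 for all genes. In 12 members every 21d mouse lay above every 0h mouse, against 12.5% of all genes, and 14 passed at an unadjusted p under 0.05, against 5.87%. Krtap3-3 had 3201, 2171 and 1291 TPM at 0h and 10324, 5731 and 4718 TPM at 21d, without overlap (1.74 ± 0.58, edgeR adjusted p = 0.178). Krtap21-1 was at 23105, 13206 and 14848 TPM at 21d (1.39 ± 0.63, adjusted p = 0.456). Of the alternative fits, only the one restricted to the 0h and 21d mice called further members at 21d, namely Krtap2-4, Krtap20-2, Krtap22-2 and Krtap3-3, where 2.89% of all genes were called higher. Other cell types moved with the same comparison. The osteoblast and osteocyte genes summed to 1258 to 3264 CPM at 0h and 15689 to 24465 CPM at 21d, with 4 of 8 called higher (edgeR). The keratins of nail bed and wound epithelium summed to 3101 to 5021 CPM at 0h and 6835 to 27875 CPM at 21d, with 4 of 5 called higher. The epidermal genes were lower in every 21d mouse, at 36076 to 91410 CPM, with none of 10 called. The part of these cell types in the Krtap levels was not tested.

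At 3h all 37 fitted changes were above 0 as well (median 1.19), and in 10 members every 3h mouse lay above every 0h mouse, against 9.16% of all genes. None passed the edgeR or DESeq2 test, where 0.254% of all genes passed the former, and 6 had an unadjusted p under 0.05 against 5.26%. At 6h the median was 0.46 and at 3d 0.65, with 1 member each, Krtap13, at an unadjusted p under 0.05 (3.69% and 4.33% of all genes). No member passed edgeR's adjusted threshold at 6h or 3d, against 0.189% and 0.551% of all genes. DESeq2 called Krtap13 at 3d and no member at 6h. The 6h median was 0.90, 0.33 and 0.005 without 6h mouse 1, 2 or 3 respectively, and these mice had summed levels of 8461, 32760 and 38535 TPM. The 3d value depended on 3d mouse 1, the single November to January mouse of that time. Without it the median at 3d was 1.24, and the summed level differed from 0h by 1.60 on the log2 scale within July to August but by -1.93 within November to January.

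At 12h and 7d more fitted changes lay below 0 than above. Of the 37, 25 were below 0 at 12h (median -0.36) and 26 at 7d (median -0.18). The direction depended on the mice included, on the reference mice and on the members summed. Without the 3 left-foot mice the 7d median was 0.08, with 24 members above 0 and 13 below. Without 7d mouse 3 alone it was -0.01, with 18 above and 19 below. Leaving out any other single 7d mouse kept it between -0.40 and -0.11. The summed level at 12h differed from 0h by -0.26 on the log2 scale over all mice, but by 0.26 against the single 0h mouse of July to August, the date group of all 12h mice. The members that share no exact stretch summed to 5597 TPM ± 2268 at 12h and 4255 TPM ± 1205 at 0h (SD, n = 3 each), which overlapped. With the date group as a covariate the median was -0.77 at 12h and -0.27 at 7d. At 7d the summed level differed from 0h by 0.04 over all mice, by 0.56 within July to August and by -0.23 within November to January. Neither edgeR without a covariate nor DESeq2 called a member at these time points, where the former called 0.167% of all genes at 12h and 2.34% at 7d. The edgeR fit restricted to the 0h and 12h mice called Krtap13 higher, against 0.582% of all genes. At an unadjusted p under 0.05, Krtap24-1 and Krtap13 were higher at 12h (3.68% of all genes), Krtap13 was higher at 7d (7.5%), and Krtap4-13 and Krtap26-1 were lower at 7d (5.77%). The lowest values were those of Krtap19-1 at 12h (-1.86) and of Krtap4-13 at 7d. In CPM of Krtap19-1 every 12h mouse lay below every 0h mouse, as in 9.86% of all genes. The nearest mice, 12h mouse 2 and 0h mouse 2, had 0.73 and 0.75 CPM, from 3.5 and 6.73 expected counts. In TPM these 2 mice had 3.33 and 3.16, so the groups overlapped. The 0h mice had 15.9, 2.33 and 4.05 TPM of Krtap4-13, and the 7d mice between 0 and 3.09 TPM (log2 fold change -3.69 ± 1.44, edgeR adjusted p = 0.218). With the date group as a covariate it passed (-4.77 ± 1.35, edgeR adjusted p = 0.0403), where 1.33% of all genes were called lower.

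At 14d the median was 1.05, and apart from Krtap13 no member had every mouse above every 0h mouse, against 13.6% of all genes. The median rested on 14d mouse 1, the single July to August mouse of that time, and was 0.19 without it. The summed level at 14d was 0.80 above 0h on the log2 scale over all mice, 2.50 within July to August (1 mouse against 1) and -0.05 within November to January (2 against 2), while the covariate fit gave a median of 0.91.

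**Figure D4:**
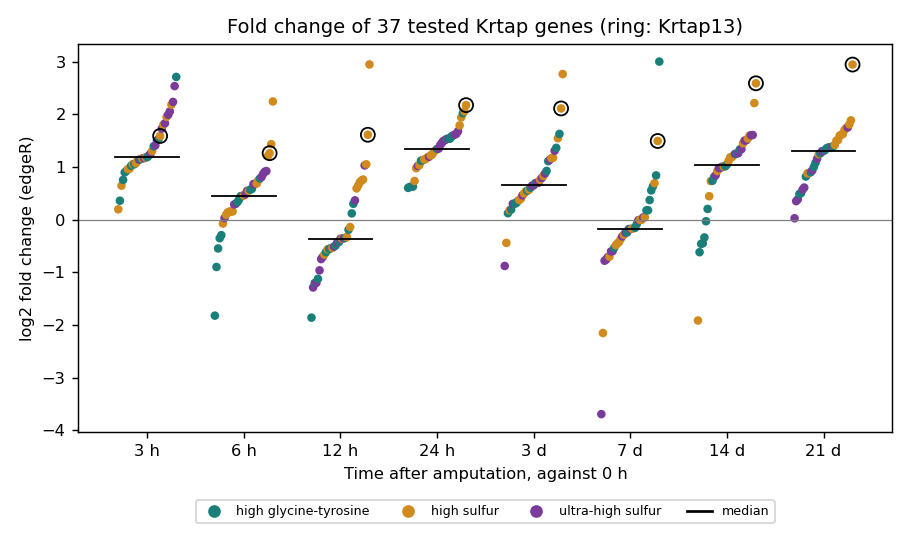
Fitted log2 fold change of the 37 tested Krtap genes at each time point against 0h (edgeR), with 1 point per gene coloured by protein composition, the median as a line and Krtap13 ringed. All points are above 0 at 3h, 24h and 21d, the medians at 12h and 7d are -0.36 and -0.18, and Krtap13 is highest at 24h, 14d and 21d.

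The classes did not move equally at every time. At 14d the ultra-high sulfur genes had a median fitted change of 1.26 and the high sulfur genes 1.19, against 0.47 for the glycine-tyrosine genes, of which 5 of 12 were below 0. At 12h the high sulfur genes had a median of 0.62 while the other classes were at -0.51. At 7d the ultra-high sulfur genes had the lowest median, -0.60. The differences between classes were not tested.

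One mouse differed in which members it held. In 7d mouse 3, 13 of the 38 detected members had a count of 0, and no other mouse had more than 4 such members. The genes at 0 included Krtap4-1, Krtap4-2, Krtap4-7, Krtap4-9, Krtap17-1, Krtap1-4, Krtap19-3 and Krtap19-5. Krtap4-2 had between 108 and 559 counts in the other 5 mice of 7d. A count of 0 in this library allows up to 0.496 CPM (3 counts), and the other 7d mice had 17.1 to 145 CPM. At the same time Krtap21-1 reached 3682 TPM and Krtap3-3 1339 TPM in 7d mouse 3. The ultra-high sulfur genes made up 0.72% of its Krtap TPM, against a median of 4.75% over all mice.

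**Figure D5:**
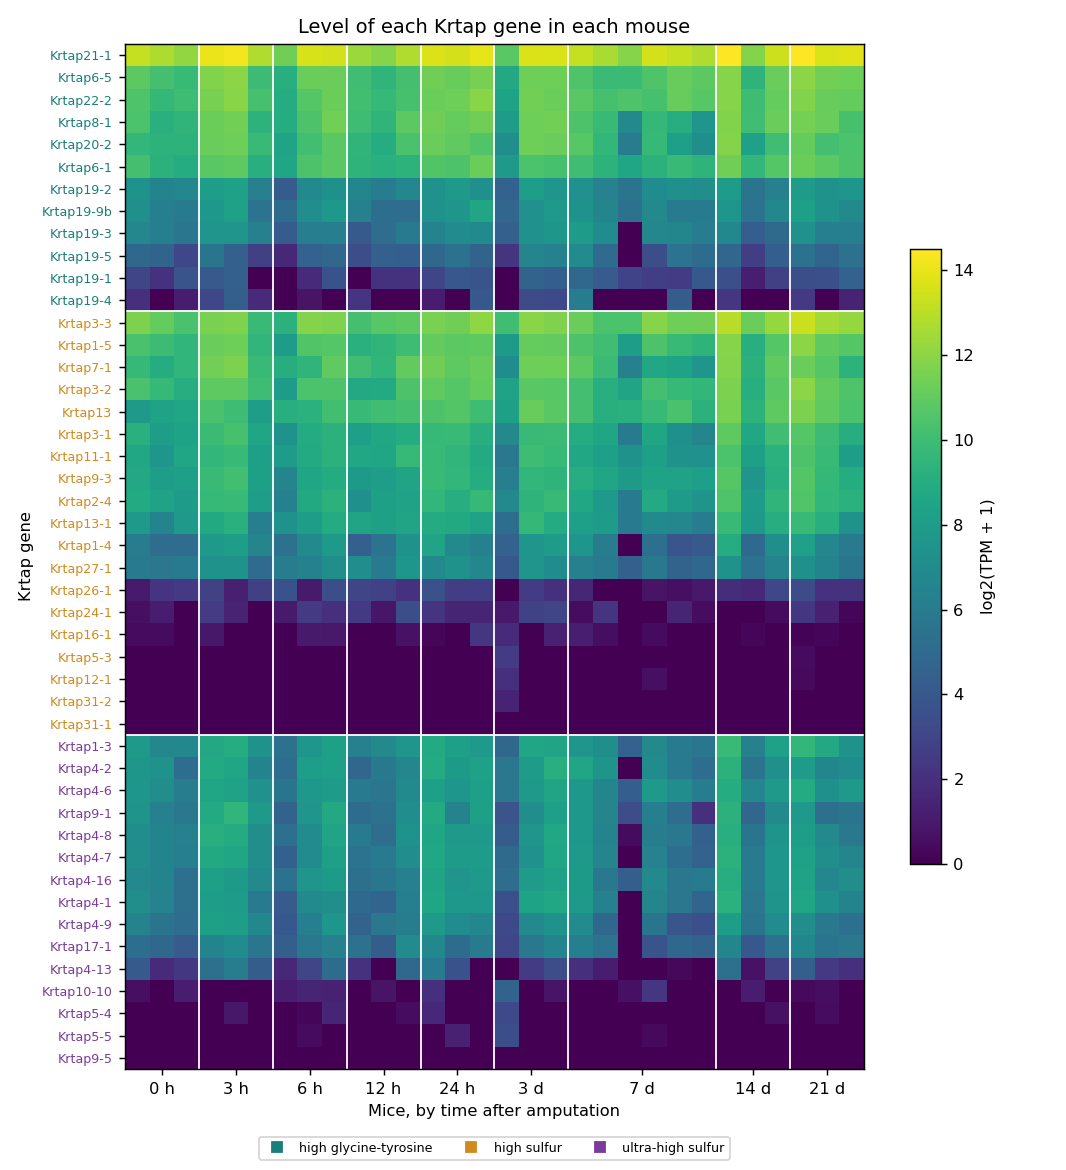
Level of each of the 46 Krtap genes (rows, grouped by protein composition and ordered by mean TPM) in each of 30 mice (columns, grouped by time after amputation and in the order of their numbers), as log2(TPM + 1). Whole columns are brighter or darker together, 7d mouse 3 lacks 13 detected members, and 3d mouse 1 is dark in the abundant members but carries the rare ones.

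The 6 rare members with counts were found mostly in 3d mouse 1, the mouse with the highest level of inner root sheath keratins. This mouse held 69.6 of 105 counts of Krtap10-10, 54.9 of 62.9 of Krtap5-5, 38.1 of 58.1 of Krtap5-4, 24 of 26 of Krtap5-3, 9 of 11 of Krtap12-1 and all 7 of Krtap31-2. In humans, genes of families 5, 10 and 12 are known from the hair cuticle, the outer cell layer of the hair shaft. In 7d mouse 4, the other mouse with inner root sheath keratins, Krtap10-10 had 7.11 counts and Krtap5-5 and Krtap12-1 had 1 each. Krtap5-3, Krtap5-4 and Krtap31-2 had 0 there. The same 3d mouse 1 had the lowest summed Krtap level and the lowest summed level of hair and nail keratins, 2157 CPM against a median of 9503.5. Whether hair in the sample accounts for either was not tested.

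The members rose and fell together across mice. Over the 666 pairs of tested members, the median Pearson correlation of log2(CPM + 1) across the 30 mice was 0.73, and 80.0% of pairs exceeded 0.5. After removal of the time point means the median was 0.76. These values describe libraries that share depth and tissue makeup. Some members, such as Krtap4-7 and Krtap4-8, also share read-length stretches. The part of divided reads in the correlations was not tested. Pairs of ultra-high sulfur genes had a median of 0.88. The closest pairs were Krtap4-7 with Krtap4-8 (0.98), Krtap1-5 with Krtap2-4 (0.97), Krtap3-1 with Krtap1-3 (0.97) and Krtap21-1 with Krtap6-5 (0.97). Least like the rest were Krtap24-1 (median correlation 0.33), Krtap26-1 (0.36) and Krtap19-4 (0.37), all of them with few counts, while Krtap13 had a median of 0.59.

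The summed Krtap level was compared with 13756 tested genes whose symbol does not start with Krtap. The 10 whose log2 level was most correlated with it were Krt34 (0.95), 1110025L11Rik (0.95), Gm10229 (0.92), Gprc5d (0.92), Psors1c2 (0.92), Lrrc15 (0.92), Krt86 (0.91), Gm11563 (0.91), Krt83 (0.90) and Krt33b (0.90). Krt34, Krt86, Krt83 and Krt33b are hard keratins of hair and nail. The genes 1110025L11Rik, Gm10229 and Gm11563 lie inside the Krtap clusters on chromosomes 16 and 11. Krtap6-1, which is part of the summed level, shares 139 of its 530 read-length stretches with other genes, most often with Gm10229. The part of divided reads in the correlation of Gm10229 was not tested. With a mean of 9581 TPM, 1110025L11Rik was nearly as abundant as Krtap21-1. None of the 10 passed the F-test over time, with edgeR adjusted p from 0.0542 for Psors1c2 to 0.305 for Krt33b.

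The lists of neighbouring genes were read with the same F-test over time (edgeR, adjusted p under 0.05), which 9.01% of all genes passed. None of 13 tested hair and nail keratins passed, with Krt35 lowest at an adjusted p of 0.10, and their median change at 21d was 1.52, beside 1.31 for the Krtap genes. None of 6 genes of the inner root sheath and medulla, of 13 regulators and adhesion genes of the matrix and cortex, of 6 sebaceous genes or of 2 melanocyte genes passed. At an unadjusted p under 0.05, which 24.1% of all genes met, 3 of the 13 keratins, 3 of the root sheath genes, 5 of the regulators, 2 of the sebaceous genes and 0 of the melanocyte genes passed. Of the 5 keratins of nail bed and wound epithelium, Krt6a, Krt6b and Krt16 passed, and 1 of 10 epidermal genes, Krt15, did. In contrast, 7 of 8 osteoblast and osteocyte genes and 4 of 8 leukocyte genes passed. The keratins Krt85, Krt87 and Krt74 and the epidermal gene Flg were not analysed here.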

How the data were processed

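Poly(A) RNA of each P3 was sequenced as single-end reads of 65 bases. The authors processed the reads with CASAVA 1.8.2 and quantified genes with RSEM 1.2.3 on mm10, per the labels, and deposited RSEM expected counts and TPM, scaled by transcript length and library, for 20321 genes in 30 mice. RSEM divides reads that match several genes, and 76.4% of the Krtap expected counts above 0 were not whole numbers (tolerance 0.005), against 31.0% over all genes. A deposited table of authors' means was not used. Expected counts were rounded and tested with edgeR 4.0.16 in R 4.3.3 (TMM, filterByExpr by time point, quasi-likelihood F-test over 9 time points and 8 comparisons with 0h, no covariate). Benjamini-Hochberg adjustment covered all 13793 genes tested, at a threshold of 0.05, and the scripts were tested on simulated data. CPM used TMM library sizes. Alternatives used DESeq2 1.42.0, limma 3.58.1 on log2(TPM + 1) or log2(TPM + 0.1), other filters, the date group as covariate, and fits without single mice. Protein composition came from GENCODE M21 coding sequences, and read sharing from exact 65-base matches between its transcripts. The labels name separate mice, and counts of 0 and their 3-count limits cover counting error only.

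The members and gene lists were chosen with earlier results of these data known. Named were the 12 members of highest mean TPM, members that passed a test, the most abundant member of each numbered family (Krtap2-4, Krtap4-2, Krtap9-3, Krtap11-1, Krtap16-1, Krtap17-1, Krtap19-2, Krtap24-1, Krtap26-1 and Krtap27-1 besides the 12), the leading genes of each list and the 10 genes most like the summed Krtap level. Other members are named where a count of at most 5 or an extreme singled them out, after their values were seen.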

Additional observations from a re-analysis of the deposited data

Results flagged for a closer look

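Outlying mice were looked for among the 6 mice of 7d, as other groups were too small, over 45 measures, namely the levels of the 38 detected Krtap genes and 7 measures of the family and libraries, of which chance would flag about 1 in 20, or 2.25. A measure was singled out when the gap between the extreme mouse and the next exceeded Dixon's critical share of their whole range. The 3 measures that did so concerned 7d mouse 3. For the number of Krtap genes at 1 CPM, 24 in this mouse against 32 or more in the others, the gap was 0.667 of the range. For the number of all genes at 1 CPM, 11787 in this mouse, it was 0.713. Of the single members, Krtap19-3 exceeded the limit, with no count in this mouse and 17.1 to 54.4 CPM in the others, where the gap was 0.721 of the range on the log2(CPM + 1) scale. Krtap4-2, also without a count there, did not (0.581).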

How the results depend on the processing

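The count of members that changed over the 9 time points, 1, became 0 at a threshold of 0.01 and with limma on log2(TPM + 1) or log2(TPM + 0.1). It became 5 with no filter on low counts, 5 with the date group as a covariate, 6 with DESeq2 and 3 without the 3 mice that stood apart, a choice made after seeing the data. Leaving out 1 mouse gave 0 to 8. The cause of these shifts was not tested, except that the stricter threshold can only lower the count. Against 0h, fits restricted to the groups compared called 1 member at 12h, 5 at 24h and 5 at 21d. DESeq2, and likewise the fit without the 3 mice, called 1 at 24h and 1 at 3d. The date covariate called 1 at 7d, Krtap4-13, and a threshold of 0.01 left 0 at 14d. Leaving out 1 mouse gave 0 to 1 at 24h, 3d and 14d, and 1 in every fit at 21d. With size factors, the mean filter of 0.5 CPM, the left-foot mice removed, or Krtap13 joined with 2310057N15Rik, the count over time was 1. Krtap13 had edgeR adjusted p of 0.0620 without 0h mouse 1 and 0.0577 without 21d mouse 1 over the 9 time points. Looser detection rules gave 40 to 42 detected members, and the range of the summed level was 12.2-fold to 16.5-fold under other sums. No paired analysis was possible because the replicate numbers follow only the order of the accessions. Precision is limited by 3 mice at most times, a within-time SD of members with a median of 1.03 on the log2 scale, and a reference of 3 mice from both date groups.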

Other observations

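The balance of the composition classes also differed between time points. The ultra-high sulfur share of Krtap TPM was 7.07% ± 0.32 (SD, n = 3) at 3h, above the 4.85% ± 0.85 at 0h, and every 3h mouse lay above every 0h mouse. The high sulfur share was highest at 14d (41.3% ± 2.52, SD, n = 3) and 12h (40.7% ± 4.80), beside 34.7% ± 1.80 at 0h. The glycine-tyrosine share was highest at 7d, 64.2% ± 3.60 (SD, n = 6). These shares were not tested, and all 3h and 12h mice carried July to August dates.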
